A study of Homo sapiens with 18 samples.

Results

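The 6 cell passages of the series, 3 of MM1R and 3 of MM1S, received the same RSL3 dose for the same time, and the strength of their transcript response was compared. Passages were ranked by the summed normalized value of the metallothionein transcripts MT2A and MT1X in the RSL3 library, and genes were sorted by how their RSL3 change followed that rank. The change of a gene in a passage was log2((RSL3 + 1)/(untreated + 1)). A gene was graded when its change followed the rank (Spearman rho of at least 0.88 in either direction) and spanned more than 1 log2 unit over the passages. A gene was alike when its change had 1 sign, reached 1.5-fold in each passage and spanned at most 1 log2 unit. Of 29553 genes in the normalized table, 10663 had a mean of at least 50 over the RSL3 and untreated libraries, and 368 of these were members, namely 316 graded and 52 alike genes. The members were chosen by these RSL3 and untreated values, so every RSL3 change below is a description without a test.

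MM1S and MM1R are human multiple myeloma cell lines of 1 origin that differ in glucocorticoid sensitivity, MM1R being the resistant line. Each of the 6 passages (MM1R P4, P6 and P7, MM1S P16, P22 and P23) gave 3 bulk RNA libraries: untreated cells, cells given 5 µM RSL3 for 3 h, and cells given 2 µM ferrostatin-1 (Fer-1) for 2 h and then 5 µM RSL3 for 3 h. Serial passages of 2 lines are not separate patients, and 1 library per passage and treatment leaves each single change without a replicate. In bulk RNA, fewer responding cells and a weaker response per cell cannot be told apart.

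Total counts lay between 17635438 and 19368343 per library, and the size factors between 0.834 and 1.08. Plasma cell transcripts were abundant in all 18 libraries (the lowest SDC1 value was 6775 and the lowest JCHAIN value 86899), whereas markers of myeloid cells did not exceed 6.96 and CD3D did not exceed 1.05. CD3E reached 211 and COL1A1 356. By genes far higher in untreated MM1S than in untreated MM1R, a single library stood apart. In the Fer-1 + RSL3 library labelled MM1R P6, these genes lay at 47.0% of the MM1S level, against −0.37% to 3.47% in the other 8 MM1R libraries. NR3C1, the glucocorticoid receptor gene, read 905 in that library, against 254 to 411 in the other MM1R libraries and 1666 to 7151 in MM1S. No RSL3 or untreated MM1R library showed this, so the ranking and the classes do not use it. Tests that use it are given with and without it, and Fer-1 + RSL3 values of single passages name MM1R P6 first. Genes higher in MM1R were not part of the measure. By it the RSL3 library of MM1S P16 lay at 86.2% and the Fer-1 + RSL3 library of MM1S P22 at 85.8%. The other MM1S libraries lay at 95.2% to 102%. Untreated MM1S P16 lay at 95.9%, but this untreated library read 367 for ICAM1 and 155 for CX3CR1. Untreated MM1S P22 and P23 read 75.6 and 80.0 for ICAM1 and 11.5 and 21.4 for CX3CR1. Untreated MM1R read 1006 to 1307 and 660 to 1132. Whether this bears on the rank of MM1S P16 was not tested.

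RSL3 inactivates the lipid peroxide reductase GPX4, and Fer-1 traps lipid radicals downstream of that step. Metallothioneins are small cysteine-rich proteins that bind zinc and copper, and their genes are switched on by the zinc-sensing factor MTF1 through metal response elements. Heat shock proteins refold damaged proteins under the factor HSF1, while NRF2 drives glutathione and quinone-detoxifying enzymes and ATF4 drives the integrated stress response.

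The promoters of the ranking gene MT2A, of the graded genes MT1H and HSPA6 and of the alike gene SRXN1 are shown for comparison of their elements (RefSeq, GRCh38.p14, from 250 bases before to 50 bases after the transcript start, 5′ to 3′ on the gene's strand). Capitals mark matches on either strand to the metal response element core (TGCACNC or TGCGCNC), the heat shock element (GAANNTTC or TTCNNGAA) and the antioxidant response element (TGACNNNGC).
MT2A, chr16:56608334-56608633, plus strand: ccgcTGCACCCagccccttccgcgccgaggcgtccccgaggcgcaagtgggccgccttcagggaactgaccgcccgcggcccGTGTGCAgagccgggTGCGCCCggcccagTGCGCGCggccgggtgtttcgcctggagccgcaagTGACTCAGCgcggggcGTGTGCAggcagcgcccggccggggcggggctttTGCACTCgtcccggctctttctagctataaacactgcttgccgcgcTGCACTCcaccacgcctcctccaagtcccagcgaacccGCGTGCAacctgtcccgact
MT1H, chr16:56669564-56669863, plus strand: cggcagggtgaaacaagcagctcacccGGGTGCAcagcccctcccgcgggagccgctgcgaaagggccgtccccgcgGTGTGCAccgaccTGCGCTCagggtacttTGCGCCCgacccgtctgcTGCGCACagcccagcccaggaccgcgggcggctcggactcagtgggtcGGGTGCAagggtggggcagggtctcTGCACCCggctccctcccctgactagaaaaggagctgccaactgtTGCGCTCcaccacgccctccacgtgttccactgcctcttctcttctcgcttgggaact
HSPA6, chr1:161524290-161524589, plus strand: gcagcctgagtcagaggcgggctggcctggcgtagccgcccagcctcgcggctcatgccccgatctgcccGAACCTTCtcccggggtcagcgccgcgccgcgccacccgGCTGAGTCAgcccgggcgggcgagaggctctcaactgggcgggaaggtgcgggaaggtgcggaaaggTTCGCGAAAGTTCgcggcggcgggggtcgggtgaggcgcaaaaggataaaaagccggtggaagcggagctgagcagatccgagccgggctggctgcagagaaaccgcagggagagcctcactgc
SRXN1, chr20:653151-653450, minus strand: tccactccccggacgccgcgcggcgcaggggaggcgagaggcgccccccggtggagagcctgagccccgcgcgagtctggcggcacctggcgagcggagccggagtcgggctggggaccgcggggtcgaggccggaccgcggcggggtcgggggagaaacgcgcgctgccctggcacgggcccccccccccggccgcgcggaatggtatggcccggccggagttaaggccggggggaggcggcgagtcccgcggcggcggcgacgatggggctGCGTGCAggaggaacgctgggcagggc

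MT2A and MT1H each held 8 metal response element cores in this window, HSPA6 held 3 heat shock elements, and SRXN1 held 1 metal response element core and none of the other elements. MT1X held 4 cores and the zinc exporter gene SLC30A1 held 2. Across the class the core did not set graded genes apart by count. It occurred in 47.0% of the 132 graded up promoters in the table and in 47.0% of all 8412 promoters of genes passing the mean of 50. Heat shock elements occurred in 18.9% of graded up and 8.82% of graded down promoters, beside 13.5% of the 8412, and antioxidant response elements in 26.5% and 18.6%, beside 19.9%. The heat shock and antioxidant matches of 1 sequence can overlap others, and a match is a description of letters only.

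In the RSL3 libraries, MT2A + MT1X summed to 367 in MM1R P6, 934 in MM1S P23, 2338 in MM1S P22, 11142 in MM1R P7, 30893 in MM1R P4 and 48831 in MM1S P16. Every list of 6 values below keeps this rank order. The highest passage exceeded the lowest 133-fold, and neighbours in the order lay 0.66 to 2.25 log2 units apart. The untreated libraries of the same passages summed to 64.1, 65.1, 46.9, 90.2, 28.6 and 63.0 and showed no such order. MM1R held ranks 1, 4 and 5 and MM1S ranks 2, 3 and 6, and in each line the lowest passage number gave the highest value. With Fer-1 before RSL3 the sums were 172, 193, 319, 347, 424 and 280, above the untreated and below the RSL3 library in each passage.

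**Figure D1:**
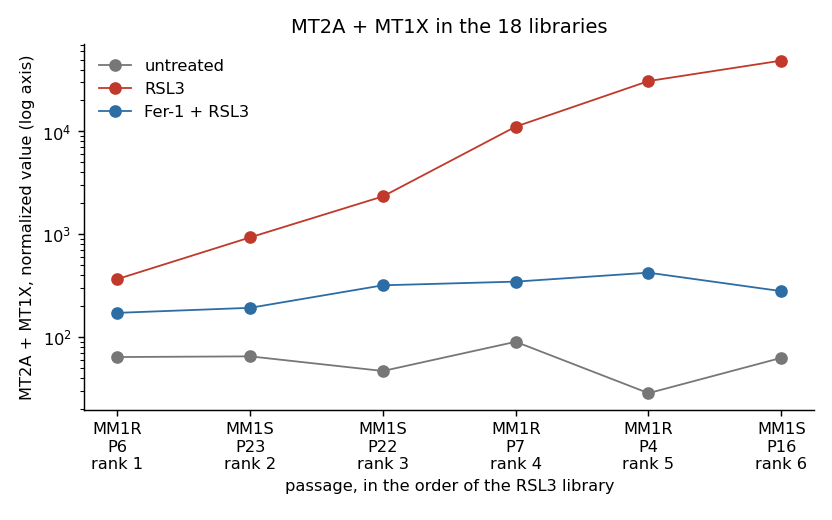
Summed normalized value of MT2A and MT1X (log axis) in the untreated, RSL3 and Fer-1 + RSL3 libraries of the 6 passages, in rank order, 1 point per library. RSL3 libraries span 367 to 48831, while untreated libraries stay between 28.6 and 90.2 and Fer-1 + RSL3 libraries between 172 and 424.

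The number of genes at least 2-fold above untreated after RSL3 was 110, 93, 120, 385, 350 and 696 of 10663 (1.03%, 0.872%, 1.13%, 3.61%, 3.28% and 6.53%), and the number at least 2-fold below was 36, 25, 25, 89, 124 and 493 (0.338%, 0.234%, 0.234%, 0.835%, 1.16% and 4.62%). The counts thus fell into 3 levels, with the lowest 3 passages close together, MM1R P7 and P4 close together, and MM1S P16 apart. Graded up genes numbered 188 (1.76% of the 10663) and graded down genes 128 (1.2%). Their median changes were 0.22, 0.30, 0.42, 0.95, 0.93 and 1.97 for graded up and −0.12, −0.16, −0.28, −0.59, −0.56 and −1.37 for graded down genes. The 30 alike up genes (0.281%) had medians from 0.84 to 1.32, and the 22 alike down genes (0.206%) from −1.10 to −0.75. Just inside the range limit of graded up genes lay HACE1 with a span of 1.003 log2 units and just outside it SDCBP with 0.998.

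**Figure D2:**
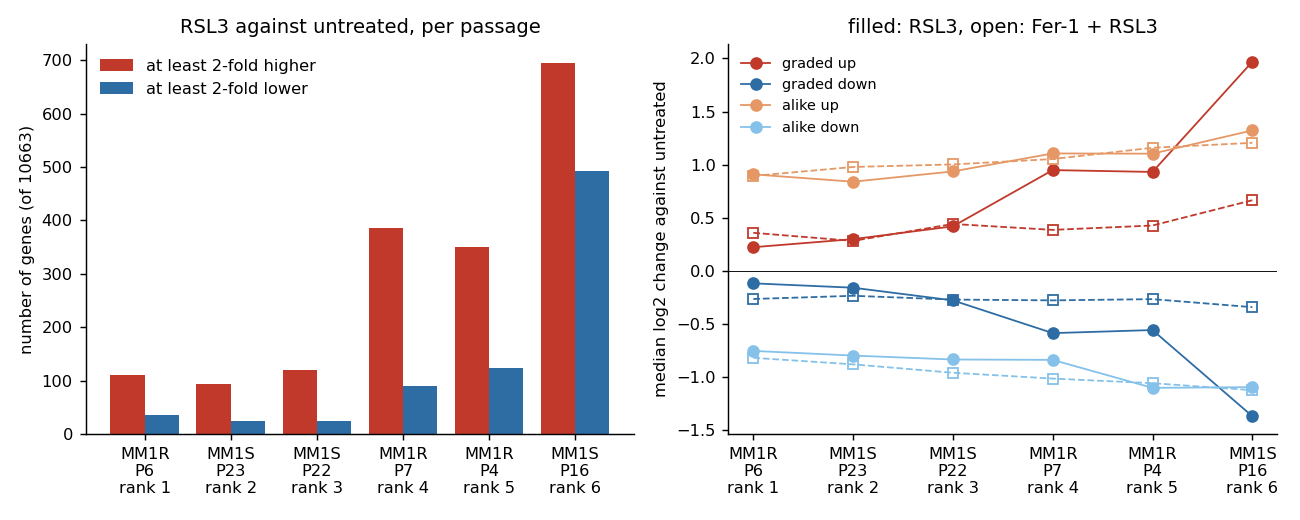
Left, genes at least 2-fold higher or lower in RSL3 than in untreated cells of the same passage, of 10663 (bars from 0). Right, median log2 change against untreated of the 188 graded up, 128 graded down, 30 alike up and 22 alike down genes, filled for RSL3 and open for Fer-1 + RSL3. Graded medians reach 1.97 and −1.37 in MM1S P16 after RSL3, and alike medians stay within 0.84 to 1.32 and −1.10 to −0.75.

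All 6 measured members of the metallothionein list were graded up, including MT2A and MT1X, which set the rank. The share of graded up genes among all genes was 1.76%. MT2A and MT1X follow the rank by its making, so nothing is read from this contrast. Between MM1R P4 and MM1S P16, ranks 5 and 6, 3 of the 6 had the higher change in MM1S P16. MT1G read 115, 176, 373, 3586, 11492 and 9799 after RSL3 and at most 2.15 in untreated cells. MT1H was listed at 0 in every untreated library and read 3.95, 22.6, 47.4, 230, 839 and 1101 after RSL3. MT1F read 3.95, 51.2, 169, 154, 556 and 1782, from at most 2.79 untreated. MT1G, MT1H and MT1F, like MT2A and MT1X, passed the mean of 50 only through their RSL3 values. Of the measured members, SLC30A1 alone neither set the rank nor needed its RSL3 values to pass. MT1A, MT1B, MT1E and MT1M did not pass it, and MT1E, for example, read 0, 0.984, 1.93, 38.7, 152 and 205 after RSL3 and 0 in all untreated libraries. The genes lie close together on chromosome 16 in hg19 (MT2A at chr16:56642496-56643409, MT1G at chr16:56700642-56701977 on the minus strand, MT1X at chr16:56716382-56718108), and their coding sequences are alike enough that reads may be shared among them.

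SLC30A1, which exports zinc from the cytosol, was abundant before treatment and behaved in steps. It read 5853, 4687, 5669, 14737, 19188 and 23907 after RSL3, beside 4087 to 5955 untreated. The lowest 3 passages lay within the untreated range and the highest 3 far above it. The changes were 0.14, −0.12, 0.20, 1.85, 1.69 and 2.14.

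Of 16 measured immediate early genes, 5 were graded up and the other 11 were in neither class, beside 1.76% of all genes graded up. NR4A1, an orphan nuclear receptor, read 584, 211, 284, 25561, 5805 and 37831 after RSL3, against 18.8 to 128 untreated. Its relative NR4A3 read 28.6, 16.7, 39.7, 2888, 555 and 13379, against at most 4.65. Both separated ranks 1 to 3 from ranks 4 to 6 by a wide gap, and both read higher in MM1R P7 than in MM1R P4. KLF2 read 2242, 3118, 3417, 16771, 4460 and 16046 after RSL3 and 631 to 1393 untreated, so that MM1R P4 lay close to the lowest 3 passages. MAFF, a small MAF protein, changed by 0.45, 0.33, 0.58, 2.41, 1.29 and 3.57, and KLF4 by 0.81, 0.43, 0.91, 2.10, 1.42 and 2.93.

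Of 21 measured heat shock genes, 7 (33.3%) were graded up, beside 1.76% of all genes. HSPA6, a strictly inducible HSP70, read 1685, 1527, 1171, 25468, 3229 and 78846 after RSL3, from 16.7 to 33.1 untreated. It was far above untreated in every passage, so its grading lay in the amount. HSPA6 and HSPA7 are near-identical, and reads may be split between them. HSPB1, a small heat shock protein, read 1437, 713, 906, 5113, 2363 and 9664, and the cytosolic chaperone HSP90AA1 read 23616, 32840, 31474, 81542, 27372 and 183020. HSPH1 (changes of 0.82 to 3.47) and the mitochondrial chaperonin HSPD1 (0.29 to 2.45) also had their highest change in MM1S P16. Several HSPA1B entries from alternate loci carry an added suffix in the table, and the HSP70 genes HSPA1A and HSPA1B were not read as single genes.

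Single genes outside these families were graded as steeply. PTGS2, the inducible prostaglandin synthase that is often used as a ferroptosis marker, read 3.95, 11.8, 25.2, 71.2, 39.6 and 915 after RSL3 and 0 to 14.4 untreated, so the lowest 2 passages lay within the untreated range. AREG, a ligand of the EGF receptor, read 43.4, 50.2, 74.5, 578, 339 and 2228, above the untreated range of 13.2 to 29.5 in every passage. DKK1, a secreted Wnt antagonist known in myeloma bone disease, changed sign along the ranking. It read 21.7, 67.9, 87.1, 76.4, 210 and 764 after RSL3 against 98.2, 131, 138, 56.9, 134 and 144 untreated. It was thus below untreated in the lowest 3 passages and above it in the highest 3. CREB5 changed by 1.15, 0.93, 2.24, 4.27, 4.21 and 6.39. PTGS2, AREG and CREB5, like NR4A3, HSPA6 and KLF4, passed the mean of 50 only through their RSL3 values, PTGS2 only through MM1S P16. PTGS2 changed by 3.28 in MM1R P7 and 5.34 in MM1R P4, from untreated values of 6.44 and 0.

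Graded up members were fewer in the ATF4, NRF2, apoptosis and unfolded protein response lists, at 5.56% to 11.1%, beside 1.76% of all genes. Of 18 measured ATF4 targets, DDIT3 (CHOP; changes of 1.47, 2.13, 1.56, 2.91, 2.80 and 3.73) and CEBPB (0.99 to 2.53) were graded up. Of 20 NRF2 targets, the ferritin chains FTL and FTH1 were graded up. FTL read 94468, 61487, 65178, 177307, 99977 and 129482 after RSL3 and 57582, 35822, 31399, 89158, 37387 and 17981 untreated, so that its largest change, 2.85 in MM1S P16, also rested on the lowest untreated value. FTL and FTH1 have many processed pseudogenes, to which reads may be lost. The pro-apoptotic BBC3 (PUMA) was the graded member of 18 apoptosis genes, with 417, 389, 651, 1378, 1637 and 1656 after RSL3 beside 202 to 355 untreated. DNAJB9, a co-chaperone of the endoplasmic reticulum, was the graded member of 14 unfolded protein response genes (changes of 0.71 to 2.15).

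**Figure D3:**
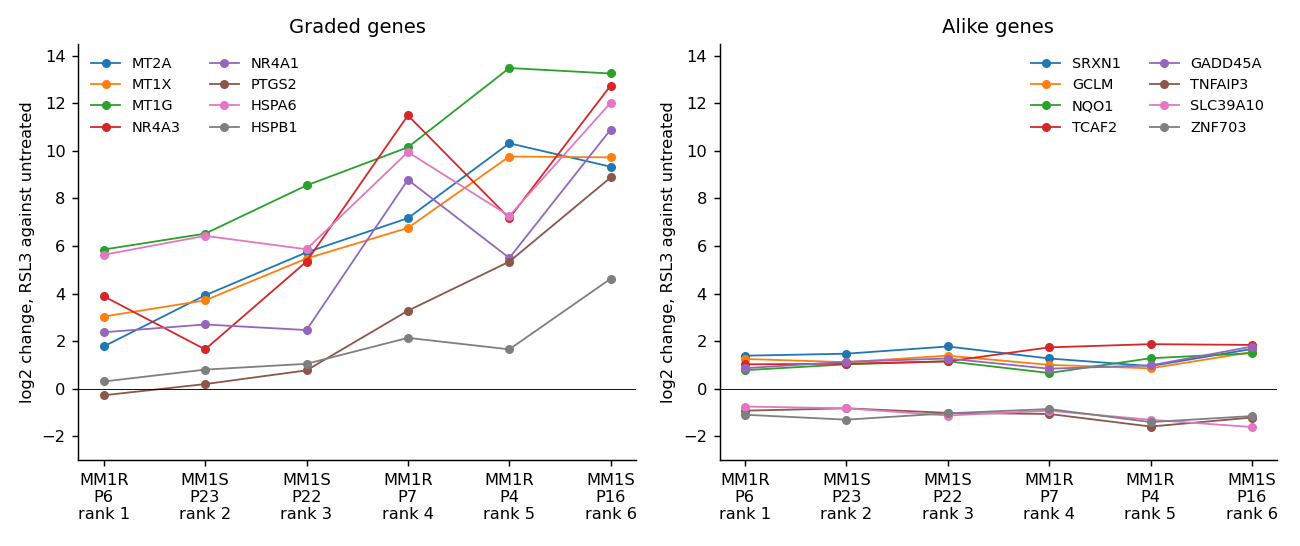
Log2 change of RSL3 against untreated in the 6 passages for 8 graded genes (left) and 8 alike genes (right) on the same axis. MT2A, MT1X and MT1G climb through all ranks up to rank 5, while NR4A1, NR4A3 and HSPA6 dip in MM1R P4; the alike genes stay between 0.66 and 1.87 or between −1.62 and −0.75.

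Graded down genes rested mostly on the highest rank. MYC read 14424, 11690, 12466, 7666, 9944 and 2487 after RSL3 and 10500 to 13957 untreated, and lay below the untreated range in the highest 3 passages only. SLA, an adaptor that dampens antigen receptor signalling, read 4.8 in MM1S P16 after RSL3 against 104 untreated, and 28.1 to 108 in the other passages. FAM78A was lower in every passage, with 769, 408, 336, 503, 418 and 101 after RSL3 and 858 to 1297 untreated. GBP1, an interferon-induced GTPase, changed sign, at 0.49, 0.96, 0.27, −0.44, −0.47 and −1.75. The endosomal sorting nexin SNX18 followed the rank without exception (0.04, −0.05, −0.17, −0.28, −0.40 and −2.10), although 5 of its 6 changes were under 0.5 in size.

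Graded down were 3 of 23 measured cell cycle genes, all mitotic, and 2 of 11 kinase feedback inhibitors, beside 1.2% of all genes. Cyclin B1 (CCNB1) read 2304, 3246, 2797, 1702, 1055 and 832 after RSL3, from 2477, 3762, 3248, 3536, 1960 and 2585. CDC20, an activator of the anaphase-promoting complex, changed by −0.23, −0.13, −0.24, −1.17, −0.95 and −1.80, and the mitotic kinase AURKA by −0.17, −0.10, −0.36, −0.87, −0.83 and −1.76. The other 20 of 23 measured cell cycle genes were in neither class, and the median of the list went from −0.11 in MM1R P6 to −0.97 in MM1S P16. SPRY1 and DUSP6, which limit ERK signalling, changed by −1.10 to −2.78 and by −0.13 to −1.55. In the same list RGS1, RGS2 and DUSP1 had positive changes in all 6 passages and were in neither class.

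Of 20 measured NRF2 targets, 3 were alike (15%, beside 0.488% of all genes), 2 were graded up and the others were in neither class. SRXN1, which repairs oxidised peroxiredoxins, read 4796, 5181, 5795, 5847, 3164 and 4755 after RSL3 and 1497 to 2429 untreated, so the 2 groups did not overlap. GCLM, a subunit of the enzyme that starts glutathione synthesis, read 905, 1068, 1229, 847, 718 and 1175, above the untreated range of 381 to 494. The quinone reductase NQO1 changed by 0.78, 1.02, 1.15, 0.66, 1.28 and 1.49. It read 248 to 651 after RSL3 and 102 to 294 untreated, so its 2 groups overlapped. Alike genes were chosen for a change in every passage, so nothing is read from a lack of overlap here or below. SRXN1, GCLM and NQO1 had rho of −0.09, 0.03 and 0.66 with the rank. GADD45A, a DNA damage response gene, changed by 0.84 to 1.77, and TCAF2, which regulates an ion channel, by 1.02 to 1.87. TCAF2 had a rho of 0.94, so an alike gene could still follow the rank within its narrow span. Others among the largest were BHLHE22, SCNN1G, ADTRP, TEX19, ZSCAN31, ZNF674, BRF2 and MTSS1. Of these, BHLHE22, TEX19, ZSCAN31 and MTSS1 passed the limit on the mean only through their RSL3 values.

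Alike down genes were led by PKDCC, ZNF703, SMTN and TNFAIP3. TNFAIP3, the A20 inhibitor of NF-kappaB signalling, read 3112, 3340, 3348, 2080, 2707 and 3552 after RSL3 and 4358 to 8268 untreated, without overlap. SLC39A10, which imports zinc, read 385, 461, 356, 283, 274 and 282 after RSL3 against 539 to 866 untreated, also without overlap. The zinc importer was thus below untreated in each passage, at −0.75, −0.83, −1.13, −0.93, −1.31 and −1.62, while the exporter SLC30A1 was far above untreated in 3 passages. ZNF703, a transcriptional corepressor, changed by −0.86 to −1.41, and the long noncoding RNA DLEU1 by −0.63 to −1.48. The rho with the rank was −0.94 for SLC39A10, −0.89 for TNFAIP3, −0.94 for DLEU1 and −0.83 for SMTN. It was −0.2 for ZNF703 and 0.09 for PKDCC, and 0.89 for the graded exporter SLC30A1.

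Genes with large changes were not all in a class. At least 2-fold above untreated in all 6 passages were 44 genes (0.413%), of which 16 were graded up, 3 alike up and 25 in neither class. HMOX1, the heme oxygenase that releases iron from heme, was among the last. It read 4434, 8015, 5632, 25808, 4357 and 41939 after RSL3 and 167 to 472 untreated. MM1R P4, rank 5 in the metallothionein order, had the lowest HMOX1 value, and rho was 0.66. ATF3, JUN, PPP1R15A, SLC7A11, DDIT4, OSGIN1, BAG3 and DNAJB1 likewise exceeded 2-fold in each passage without following the rank closely. ATF3 read 1796, 4430, 4632, 23143, 10699 and 33914.

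The 2 middle-to-high MM1R passages were compared by gene list after their values were seen. All 21 heat shock genes had the higher signed change in P7 (rank 4), with a median P4 minus P7 difference of −0.74. Immediate early genes had it in 15 of 16 cases (median −1.28) and kinase feedback inhibitors in 10 of 11 (median −0.95), although DUSP6, at −0.72 in P7 and −1.55 in P4, was farther from untreated in P4. In the metallothionein list 5 of 6 genes were higher in P4, with a median difference of 2.43, a direction that the ranking by MT2A + MT1X fixes for its own 2 genes and from which nothing is read. For all 10663 genes, 51.6% had the higher change in P4, and the median difference was 0.02. NRF2 targets (12 of 20 higher in P4) and ATF4 targets (9 of 18) lay near that share.

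**Figure D4:**
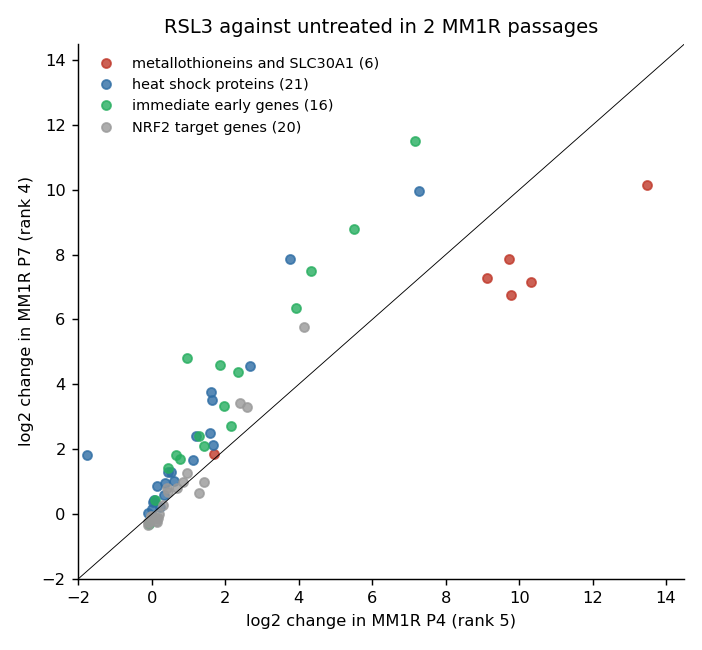
Log2 change of RSL3 against untreated in MM1R P4 (horizontal) and MM1R P7 (vertical) for 4 gene lists, 1 point per gene, with the line of equal change. All 21 heat shock and 15 of 16 immediate early genes lie above the line, and 5 of 6 genes of the metallothionein list lie below it.

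Median changes of whole lists varied between passages. Immediate early genes had medians of 0.63, 0.38, 0.51, 3.03, 1.64 and 2.86, heat shock genes 0.44, 0.80, 1.04, 1.28, 0.52 and 2.45, and kinase feedback inhibitors 0.20, −0.03, −0.14, 1.57, 0.48 and 1.88. NRF2 targets moved little by this measure, from 0.31 to 0.63, and unfolded protein response genes from 0.20 to 0.43. The all-gene median stayed between −0.05 and −0.0048. Inflammatory genes (5 measured) had medians between −0.19 and 0.45, with PTGS2 graded up and TNFAIP3 alike down.

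**Figure D5:**
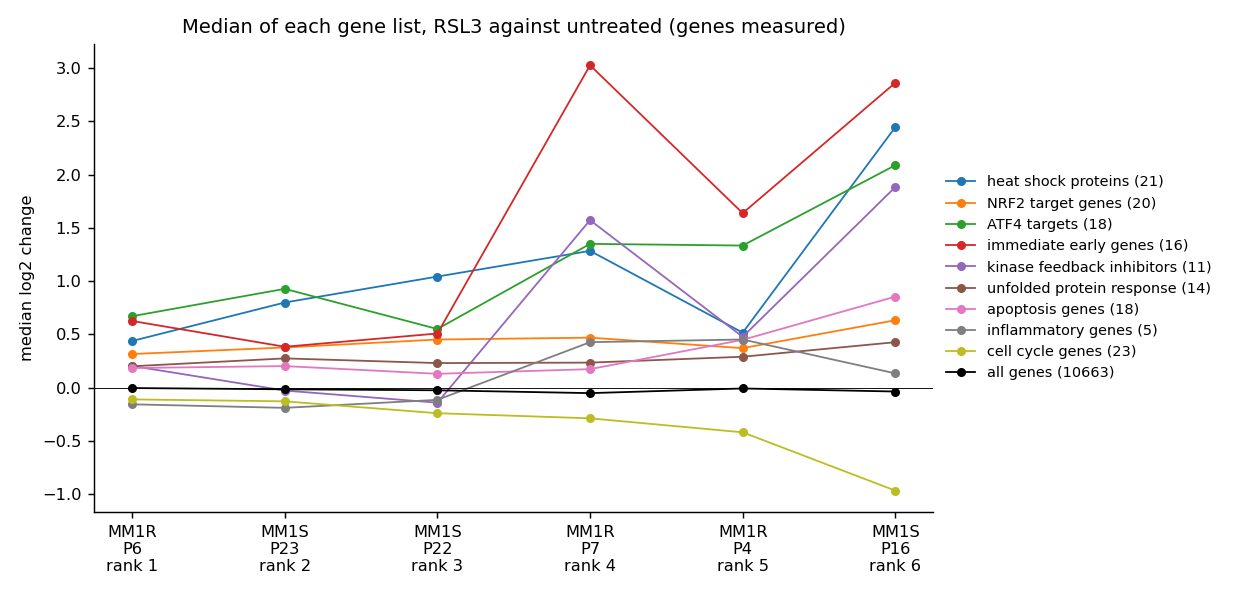
Median log2 change of RSL3 against untreated for 9 gene lists and for all 10663 genes, by passage in rank order, with the number of genes measured. Immediate early, heat shock and kinase feedback lists are highest in MM1R P7 and MM1S P16, cell cycle genes reach −0.97 in MM1S P16, and all genes stay near 0.

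The counts of graded genes differed with the anchor and with the top passage. Ranked by HMOX1 in place of MT2A + MT1X, 59 genes were graded up and 32 graded down. The HMOX1 order had a rho of 0.37 to the metallothionein order, too low for any gene to pass the rho limit with both. That no graded gene was shared thus follows from the rule, and nothing is read from it. Without MM1S P16, 62 genes were graded up, 46 of them among the 188, and 18 were graded down, 12 of them among the 128. Ranked by the log2 change of MT2A + MT1X, which places MM1R P4 above MM1S P16, 77 and 66 genes were graded. The alike rule does not use the ranking and becomes easier to meet when a passage is left out, so those settings could not remove an alike gene.

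The ranking used RSL3 libraries only, so levels in the other libraries were tested along it over all genes. The members were chosen with untreated values in their change, so no member count is drawn from the untreated libraries. MT2A + MT1X in untreated libraries had a Spearman rho of −0.37 with the rank (exact permutation p = 0.497, adjusted p = 0.497) and on the log2 scale a Pearson r of −0.27 with the RSL3 sum (exact permutation p = 0.603, adjusted p = 0.603), 6 passages each. Without the 2 passages farthest from the median of the RSL3 sum, they were −0.4 and −0.41. Across the untreated libraries, 0 of 13707 genes had a slope along the rank at an FDR under 0.05 by the edgeR quasi-likelihood test with cell line as covariate, while 820 (5.98%) had an unadjusted p under 0.05 and DESeq2 called 2. With 6 libraries and 3 residual degrees of freedom, a slope that missed the threshold is not shown to be 0.

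After Fer-1 and RSL3, MT2A + MT1X had a rho of 0.66 with the rank (exact permutation p = 0.175, adjusted p = 0.350) and an r of 0.79 with the log2 RSL3 sum (exact permutation p = 0.0778, adjusted p = 0.156). Without MM1R P6, rho was 0.4 (exact permutation p = 0.517) and r 0.64 (exact permutation p = 0.283), and without MM1S P16 it was 1 (exact permutation p = 0.0167, the smallest that 5 passages allow), so the relation rests on single passages. Without the 2 passages farthest from the median, MM1R P6 and MM1S P16, rho was 1 and r 0.91 over the other 4 passages, too few for a test that could pass. MT2A read 58.1, 50.7, 107, 117, 124 and 98.4 and MT1X 114, 142, 212, 230, 300 and 182 in these libraries, with slopes of 0.22 and 0.20 log2 units per rank (edgeR adjusted p = 0.242 and 0.231). Without MM1R P6 the slopes were 0.15 and 0.07 (adjusted p = 0.424 and 0.629).

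Across genes, 14 of 13874 (0.101%) had a slope along the rank in the Fer-1 + RSL3 libraries, 5 rising (0.036%) and 9 falling (0.0649%), and 2236 (16.1%) had an unadjusted p under 0.05. A single member, the graded down gene ZNF681, was among the 14. TFRC, the transferrin receptor that takes up iron, fell along the rank, from 3007, 1717 and 1320 to 1323, 849 and 723, by 0.37 log2 units per rank (edgeR adjusted p = 0.0145). SH2D2A and ICAM1 rose by 0.55 and 0.42 per rank (adjusted p = 0.0284 and 0.0329), and by 0.70 and 0.57 without MM1R P6 (adjusted p = 0.000148 and 0.000265). ICAM1 differed between the lines before treatment, at 1006 to 1307 in MM1R and 75.6 to 367 in MM1S, and with the untreated library as a block and without MM1R P6 its slope was −0.023. SH2D2A also differed before treatment, at 93.3 to 120 in MM1R, 9.30 in MM1S P23, 8.62 in MM1S P22 and 60.1 in MM1S P16. It was not called with the untreated library as a block. Without the MM1R P6 library, 598 of 13785 genes (4.34%) were called, among them 11 of 187 graded up, 17 of 128 graded down, 6 of 30 alike up and 2 of 22 alike down genes. Leaving out the MM1S P22 library instead left 0 calls, and without a cell line term there were 0, so the count rests on single libraries. TFRC kept an adjusted p of 0.00181 without the MM1R P6 library and had 0.0560 without MM1S P22. With the untreated library of the same passage as a block, TFRC was the single call (adjusted p = 0.0226), and without MM1R P6 there was none.

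The medians of the graded genes differed less between passages in the Fer-1 + RSL3 libraries, which the choice of genes did not use. That choice asked for a span over 1 log2 unit after RSL3, so a narrower span elsewhere can follow from it. Nothing is read from the difference in span. Against untreated, the Fer-1 + RSL3 medians of graded up genes were 0.36, 0.28, 0.44, 0.39, 0.43 and 0.66. Those of graded down genes were −0.27, −0.24, −0.27, −0.28, −0.27 and −0.34. These medians share the untreated libraries with the RSL3 changes. In MM1S P16, 182 of 188 graded up genes read lower with Fer-1 than with RSL3 alone and all 128 graded down genes read higher, beside 5231 lower and 5431 higher of all 10663. Since 171 and 120 of the members have their largest change in that passage, a less extreme second library follows from the choice, and nothing is read from these counts. In MM1R P6, 68 of the 188 graded up genes read lower with Fer-1, and that passage holds the Fer-1 library that stood apart. NR4A1 read 185, 89.7, 448, 77.5, 504 and 437 with Fer-1, against up to 37831 without it.

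With Fer-1, against untreated, alike up medians were 0.89, 0.98, 1.00, 1.05, 1.16 and 1.21, and alike down medians −0.82, −0.88, −0.96, −1.02, −1.06 and −1.12. SRXN1 read 4489, 5467, 6427, 5496, 4526 and 4406, and GCLM 1097, 1105, 1121, 1196, 884 and 1031, again above their untreated ranges. Of the 21 heat shock genes, 20, 20, 21, 3, 18 and 1 read higher with Fer-1 than with RSL3 alone, so that the list lay below RSL3 mainly in MM1R P7 and MM1S P16. HSPB1 read 1438 with Fer-1 and 5113 without it in MM1R P7, and 1335 and 9664 in MM1S P16. HSPA6 read 5773, 6406, 9506, 10012, 5538 and 22709 with Fer-1, higher than with RSL3 alone in the 3 lowest passages and in MM1R P4 and lower in MM1R P7 and MM1S P16. HMOX1 read 12341, 18134, 20798, 26613, 13746 and 22058 with Fer-1, above the RSL3 library in each passage other than MM1S P16. The first value of each of these lists comes from the library that stood apart, and its part in them was not tested.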

How the data were processed

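Bulk RNA was sequenced from 18 libraries. Per the submitters' processing notes, FastQC 0.11.5 and STAR 2.7.3a with hg19 were used. The raw counts per gene (43735 genes) and the normalized signal (29553 genes) were deposited by the authors, and the signal equals the counts divided by 1 factor per library. The counting tool and strand setting were not given in the sources used here. Positions are from GENCODE lifted to hg19.

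Classes were computed from normalized values with a pseudocount of 1. Rank slopes were tested on raw counts with edgeR 4.0.16 in R 4.3.3 (TMM, filterByExpr, quasi-likelihood test, line as covariate, Benjamini-Hochberg), with DESeq2 1.42.0 as an alternative. Permutations used all 720 pairings (two-sided, smallest p 0.00278). The labels give the treatments of a passage 1 passage and replicate number, which pairs them. Named genes were MT2A, MT1X and NR3C1, the 12 graded up, 8 graded down, 12 alike up and 8 alike down genes largest by span or median, up to 5 members per class of each of 10 lists (or the 3 largest changes of a list with under 3 such members), and the 3 smallest p in each direction of each slope test. SLC30A1, MT1E, HSPA7, ZNF681 and the genes above 2-fold in each passage were named after their values were seen. The members and lists were chosen with earlier results of these data known. On simulated 8-fold slopes, 149 of 200 genes were recovered for untreated (13462 genes) and 166 of 200 for Fer-1 + RSL3 libraries (13617 genes). P-values measure only the spread between these libraries, which may be technical. Alternatives were other filters, pseudocounts, scalings, rankings and limits, and leaving out each library.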

Additional observations from a re-analysis of the deposited data

How the results depend on the processing

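Graded up genes numbered 188, with 62 to 324 when 1 passage was left out (62 without MM1S P16, 324 without MM1R P6), 503 without a filter, 59 ranked by HMOX1, 77 ranked by the change of MT2A + MT1X, 54 by Pearson r of at least 0.9 and 74 with a span over 2. Graded down genes numbered 128, with 18 to 193 when 1 passage was left out (18 without MM1S P16, 193 without MM1R P7), and 265, 32, 66, 22 and 8 under the same settings. Alike up genes numbered 30, with 34 to 59 when 1 passage was left out (59 without MM1S P16), 19 with a mean of at least 200, 3 with each change at least 2-fold and 13 with a span of at most 0.7. Alike down genes numbered 22, with 23 to 37, and 0 and 13 under the last 2 settings. Fewer passages make the alike rule easier to meet.

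Slope calls in untreated libraries were 0, with 0 to 29 when 1 library was left out (29 without MM1R P6), 220 without a filter and 2 by DESeq2. In Fer-1 + RSL3 libraries they were 14, with 0 to 598 when 1 was left out (598 without MM1R P6, 249 without MM1R P7, 2 without MM1S P23, 0 without MM1S P22), 805 without a filter, 242 by DESeq2 and 0 without the line term. The cause was not tested. Spearman rho of MT2A + MT1X with the rank ranged from −0.6 to −0.1 (untreated) and from 0.4 to 1 (Fer-1 + RSL3, 1 without MM1S P16) with 1 passage left out, a setting chosen after seeing the data. Labels give the 3 treatments of a passage 1 number, so a replicate block was fitted on the Fer-1 + RSL3 against untreated slope. It called 1 gene, TFRC, and without MM1R P6, a setting chosen after seeing the data, 0 genes, where the slopes of H6PD, ICAM1 and PEG10 turned to −0.11, −0.023 and 0.0264. No paired analysis was possible because rank is fixed within a passage for the untreated slopes. Among the alternatives for named genes, 714 values held and 92 did not. Many of the 714 could not have moved. Other filters leave the value of a kept gene unchanged, and other rankings leave the median of an alike gene unchanged. Under the HMOX1 ranking no graded gene could hold. The tally is thus no measure of robustness. A graded gene held when rho kept its sign and a size of at least 0.88. An alike gene held when its median moved by less than the standard deviation of its changes over the 6 passages. All 180 list medians moved by less than their standard deviation over the 3 passages of a line. TMM scaling moved the all-gene median by at most 0.014.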
